A study of Mus musculus with 60 samples.

Results

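The type I interferon response was followed through 38 genes, named in a list of interferon-stimulated genes and of the receptors, factors and sensors that act with them. The list holds gene names, chosen with earlier results of these data known, and all 38 are among the 35976 gene symbols of the count table. They fall into 2 receptor chains, 4 transcription factors, 5 sensors of foreign nucleic acid, 4 Ifit genes, 3 genes of the OAS family, 3 antiviral membrane proteins, 2 Ifi27 genes, 9 other effectors, 2 genes of the ISG15 system, 3 genes of ADP-ribose signalling and 1 chemokine. RNA came from the hippocampus of NLGF mice, an App NL-G-F knock-in in which familial Alzheimer mutations are expressed from the mouse gene's own promoter, and of wild-type (WT) mice. Each genotype was sampled at weeks 3, 8 and 24 of age, which gives 6 sets of 10 samples and 60 in all; by the labels 5 of each set are females and 5 are males. The labels name no treatment, and they call the samples of a set replicates without saying that each is a separate animal, so a p-value measures the spread between these samples. The deposited table holds raw counts, and levels are given as CPM, counts scaled to a common library total.

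Type I interferons bind a receptor made of Ifnar1 and Ifnar2, whose kinases activate Stat2 and other factors. Stat2 and Irf9 are part of a complex that binds the interferon-stimulated response element in the promoters of its target genes, while Irf7 and Irf1 are factors that are themselves induced and extend the response. In the brain, neurons, astrocytes and above all microglia can respond, and microglia that express these genes have been described around amyloid plaques and in ageing.

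Library totals lay between 17786578 and 73423252 counts. In 7 NLGF libraries of week 3 (females 1, 4 and 5 and males 2 to 5) they were 54026870 counts or more, against at most 35162084 counts in the other 53, and their level of Bc1, a noncoding RNA of neurons, was 1776 to 5815 CPM, where no other library had over 59.6 CPM. These 7 are called the deeper libraries, and results at week 3 are given with and without them. The medians of App, the gene of the knock-in, were 1620, 1655 and 1624 CPM in the NLGF sets of weeks 3, 8 and 24, against 1738, 1861 and 1730 CPM in the WT sets of those weeks. The mutations change bases and not the gene's presence, so this level does not check the genotype labels. All 13 markers of hippocampal neurons were detected in every library. NLGF male 2 of week 3 carries the X-inactivation RNA Xist and has 0 counts of the Y-linked gene Ddx3y, against its sex label, and NLGF female 1 of week 8 has an age field that says week 3 and was kept at the week of its title. Without NLGF male 2 the genotype comparison of week 3 again called 2 members, and without NLGF female 1 that of week 8 again called 0.

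Not every member could be tested. After the filter on low counts 32 members were tested between the genotypes at week 3, 31 at week 8 and 33 at week 24, and each count below is out of these and not out of 38. Isg15, the ubiquitin-like modifier that gave the system its name, lay between 0 and 0.137 CPM in all 60 libraries. Zbp1, a sensor of nucleic acid in the Z form, was too low for the main tests as well. With no filter on low counts Zbp1 was called for NLGF week 24 over week 8. Oas1a and Oas2, enzymes that make the activator of RNase L, were too low within each age. Ifi27l2a, a small mitochondrial protein of the Ifi27 family, and Cxcl10, a chemokine that draws T cells, could be tested between the genotypes at week 24 but not at weeks 3 and 8. Ifi44, an interferon-induced cytoplasmic protein, was tested at week 3 but not at weeks 8 and 24. The interferons themselves were near 0: of 21 interferon genes none was tested, Ifnb1 had 1 count in all 60 libraries together, and the most, for Ifnk, was 44 counts spread over 28 libraries.

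At week 3 the 2 members that differed between the genotypes were Ifit3 and Ifit3b, closely related neighbours on chromosome 19 that encode antiviral proteins with tetratricopeptide repeats, and both were lower in NLGF. Over all genes tested 3.78% were called in either direction, 1.67% higher and 2.11% lower, against 2 of 32 members. Ifit3 (chr19:34583531-34588731, mm10) had 2.15 CPM in the lowest NLGF library, a median of 2.67 CPM and 4.50 CPM in the highest, against 2.91, 4.80 and 11.0 CPM in WT. In 6 of the 10 NLGF libraries Ifit3 lay below every WT library, and all 10 were below the WT median. In edgeR's quasi-likelihood test Ifit3 had a log2 fold change, NLGF over WT throughout, of -0.90 ± 0.20 (SE, n = 10 each) with an adjusted p of 0.0230. Ifit3b (chr19:34607970-34613401) had 1.32, 1.63 and 2.25 CPM in NLGF as lowest, median and highest, against 1.75, 2.86 and 4.73 CPM in WT. Here 7 of the 10 NLGF libraries lay below every WT library, and the log2 fold change was -0.79 ± 0.16 with an adjusted p of 0.0171.

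The counts of these neighbours cannot be fully separated. Of the 50-base windows in the transcripts of Ifit3, 51.2% also occur in those of Ifit3b, and 44.5% of the windows of Ifit3b occur in Ifit3, so reads there could be given to either gene or dropped. Their promoters show the same closeness: in the 250 bases before each RefSeq start (build GRCm38.p6) 217 of 218 aligned bases were identical. Gaps and the ends left unaligned are not counted. Both windows are shown because they carry the same pair of interferon-stimulated response elements, 2 copies of GAAA with any 2 bases between them, searched on both strands, which are in capitals.
Ifit3, chr19:34583279-34583528, plus strand: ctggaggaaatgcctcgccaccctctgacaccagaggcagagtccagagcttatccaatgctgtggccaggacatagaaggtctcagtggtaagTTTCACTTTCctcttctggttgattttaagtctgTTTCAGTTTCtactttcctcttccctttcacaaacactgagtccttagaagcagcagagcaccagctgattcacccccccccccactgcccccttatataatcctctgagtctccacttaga
Ifit3b, chr19:34607707-34607956, plus strand: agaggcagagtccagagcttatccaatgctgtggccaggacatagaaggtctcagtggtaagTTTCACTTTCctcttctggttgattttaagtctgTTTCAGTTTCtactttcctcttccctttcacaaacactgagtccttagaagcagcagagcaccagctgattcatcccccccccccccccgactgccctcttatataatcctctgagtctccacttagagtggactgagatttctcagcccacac
Upstream windows were found in RefSeq for 29 of the 38 members, and 11 of them (37.9%) hold at least 1 such element, against 3.46% of the 27025 genes with a window. The 11 are Bst2, Cxcl10, Ifit1, Ifit3, Ifit3b, Ifitm2, Isg15, Oas1a, Rsad2, Stat2 and Trim30a. The gamma-activated sequence, TTCNNNGAA, which reads the same on both strands, was found in 6 of 29 members (20.7%) and in 8.13% of all genes. A match describes the letters of the window and does not show that a factor binds there.

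Ifit2, a further Ifit protein, had at this age 5.29, 6.99 and 9.09 CPM in NLGF and 5.88, 8.51 and 14.8 CPM in WT, with a log2 fold change of -0.35 ± 0.14 and an adjusted p of 0.142. Usp18, which removes ISG15 from proteins and shuts down the receptor, showed -0.85 ± 0.24 with an adjusted p of 0.0523. All 10 NLGF libraries had less Usp18 than the WT median of 1.27 CPM, with levels of 0.472, 0.646 and 1.14 CPM, although the lowest library of the age was WT female 3 at 0.212 CPM. Of the receptors, factors and sensors none was called. The 9 tested members of the remaining effectors included none either.

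The week 3 result depends on the deeper libraries. With the 3 other NLGF libraries against the 10 WT libraries, 0 of 35 members tested were called and 0 of 17187 genes, and 3 members had an unadjusted p under 0.05. In that comparison Ifit3 stood at -0.68 ± 0.36 (adjusted p = 0.483, edgeR) and Ifit3b at -0.51 ± 0.26 (adjusted p = 0.461), while with the deeper libraries alone against WT 5 of 34 members were called, Ifitm2 higher and Stat2, Ifit3, Ifit3b and Usp18 lower, among 3671 of 17084 genes called. All the deeper libraries are NLGF, and the part of depth and of Bc1 level in these calls was not tested beyond these values. Of 20 tested genes of nucleic acid sensing outside the 38 members 1 was called at week 3 with all libraries, Tlr3 (0.50 ± 0.14, adjusted p = 0.0465), and of 54 other interferon-stimulated genes 0 were. Ifit3 also lost its call without NLGF female 4 (adjusted p = 0.0509) and without NLGF female 5 (adjusted p = 0.0518), which left Ifit3b as the 1 member called. In bulk RNA, fewer cells of a type and less RNA per cell cannot be told apart, here and in every result below.

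At week 8 no member was called in either direction, and neither was any of the 16494 genes tested with edgeR (0%), while DESeq2 called 1 gene, which is no member. An unadjusted p under 0.05 was reached by 1292 genes and by 2 members. Irf7, the factor that amplifies interferon production, had 1.55, 1.87 and 2.79 CPM in NLGF and 0.925, 1.55 and 1.94 CPM in WT, with a log2 fold change of 0.35 ± 0.12 and an adjusted p of 0.633. All 10 NLGF libraries were above the WT median of Irf7, and 2 were above every WT library. Ifit3 had 2.51, 3.70 and 4.28 CPM in NLGF and 3.47, 4.36 and 6.40 CPM in WT, with -0.36 ± 0.12 and an adjusted p of 0.633, and all 10 NLGF libraries were below its WT median. The median log2 fold change of the 31 members tested was -0.00, against -0.01 over all genes.

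At week 24 the members called were Irf9, Trim30a and Xaf1, and all 3 were higher in NLGF. Over all genes 0.878% were called, 0.8% higher and 0.0787% lower. Irf9 (chr14:55603571-55610030), the DNA-binding part of the interferon factor complex, had 5.32, 7.12 and 8.67 CPM in NLGF as lowest, median and highest library, against 3.56, 5.53 and 6.21 CPM in WT. In 8 of 10 NLGF libraries Irf9 was above every WT library, with a log2 fold change of 0.45 ± 0.10 (adjusted p = 0.0353, edgeR). Trim30a (chr7:104409025-104465193), a tripartite-motif protein of the mouse that restrains toll-like receptor signalling, had 1.94, 2.65 and 3.59 CPM in NLGF, against 1.35, 1.86 and 2.42 CPM in WT. For Trim30a 7 of 10 NLGF libraries lay above every WT library, at 0.54 ± 0.12 with an adjusted p of 0.0268. Xaf1 (chr11:72301629-72313733), which binds the apoptosis inhibitor XIAP, had 2.12, 2.71 and 3.36 CPM in NLGF and 1.52, 1.69 and 2.63 CPM in WT. For Xaf1 6 of 10 NLGF libraries lay above every WT library, at 0.53 ± 0.13 with an adjusted p of 0.0429.

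Of the RefSeq starts of Trim30a the outermost is shown, whose window holds an interferon-stimulated response element. The window of a further start inside the gene (chr7:104446126-104446375) holds none, and neither do the windows of Irf9 and Xaf1. The window is written on the gene's own minus strand.
Trim30a, chr7:104465194-104465443, minus strand: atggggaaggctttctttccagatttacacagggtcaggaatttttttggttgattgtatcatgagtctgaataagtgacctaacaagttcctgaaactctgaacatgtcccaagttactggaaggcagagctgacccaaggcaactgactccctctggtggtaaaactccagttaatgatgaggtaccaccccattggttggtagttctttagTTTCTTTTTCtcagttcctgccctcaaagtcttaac
The match in Trim30a begins 36 bases before that RefSeq start. Of the transcript windows of Trim30a, 5.98% are shared with its neighbour Trim30d.

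**Figure D1:**
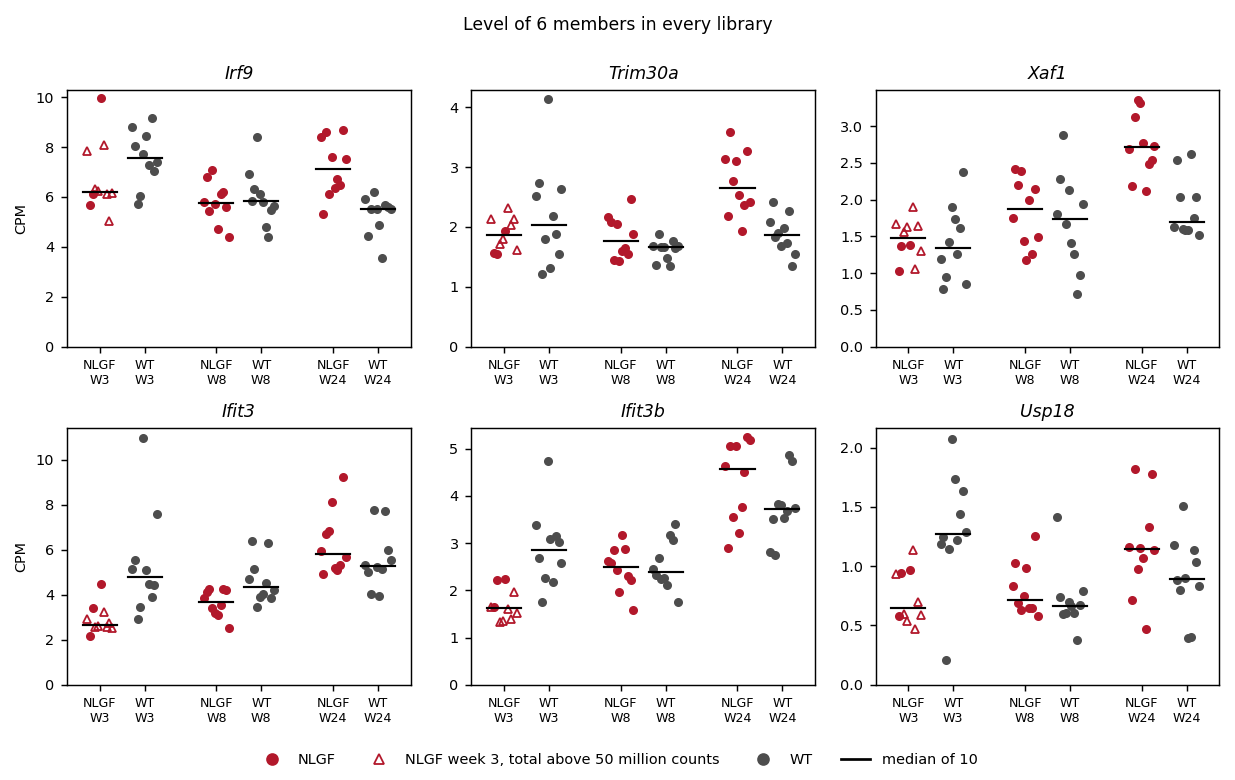
Level of Irf9, Trim30a, Xaf1, Ifit3, Ifit3b and Usp18 in each library, in CPM on linear axes that start at 0, with NLGF left of WT at weeks 3, 8 and 24 and a bar at the median of each set of 10. Open triangles are the 7 deeper NLGF libraries of week 3. The sets overlap in every panel: Irf9 at week 24 has 8 of 10 NLGF libraries above every WT library, and Ifit3b at week 3 has 7 of 10 below.

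The other members stood mostly on the same side at week 24 without passing the test. Of the 33 tested, 32 had a positive log2 fold change, the exception being Ifnar1 at -0.03, and 18 had an unadjusted p under 0.05, as had 1484 of all 16508 genes tested. Their median was 0.34, against -0.00 over all genes tested, and an unadjusted p is no call. Among the factors Irf7 had 1.05, 1.89 and 2.78 CPM in NLGF and 0.687, 1.49 and 2.27 CPM in WT (0.38 ± 0.20, adjusted p = 0.594). Among the sensors, Ddx58 (RIG-I) and Ifih1 (MDA5), which detect viral RNA in the cytosol, were at 0.28 and 0.24, their regulator Dhx58 at 0.38, and the RNA-activated kinase Eif2ak2 at 0.34, with adjusted p between 0.409 and 0.629.

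In the OAS family Oasl2, a 2-prime-5-prime oligoadenylate synthetase-like protein, had 2.30, 3.93 and 5.25 CPM in NLGF and 1.54, 2.34 and 3.93 CPM in WT, with 5 NLGF libraries above every WT library (0.61 ± 0.16, adjusted p = 0.113). Among the other effectors Rtp4, a chaperone of receptors in the Golgi, had 1.02, 1.40 and 2.32 CPM in NLGF and 0.684, 1.01 and 1.26 CPM in WT. For Rtp4 8 of 10 NLGF libraries lay above every WT library, and at 0.64 ± 0.16 its adjusted p was 0.0581. Parp14, which attaches ADP-ribose to proteins, stood at 0.50 ± 0.14 (adjusted p = 0.131), and its partners Parp9 and Dtx3l at 0.31 and 0.23. Parp9 (chr16:35938470-35972605, plus strand) and Dtx3l (chr16:35926511-35939151, minus strand) overlap at their starts, and as no source used here states the strand setting of the counting, reads there cannot be told apart.
Lgals3bp, a secreted glycoprotein that binds galectin, had 21.3, 25.6 and 61.8 CPM in NLGF and 9.87, 15.7 and 39.4 CPM in WT, at 0.74 ± 0.25 with an adjusted p of 0.311. All 10 NLGF libraries were above the WT median of Lgals3bp, but only 2 were above every WT library. Ifi27l2a stood at 0.90 ± 0.25 (adjusted p = 0.139) and Cxcl10 at 0.96 ± 0.43 (adjusted p = 0.515), both from low counts. Zbp1, not tested, had 0.0397, 0.306 and 0.541 CPM in NLGF and 0, 0.0840 and 0.242 CPM in WT, with 6 NLGF libraries above every WT library.

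Stat2, which joins Irf9 in the factor complex, had a narrow range of 19.1 to 21.4 CPM in NLGF at week 24 around a median of 20.3 CPM, against 15.9, 17.9 and 24.0 CPM in WT. All 10 NLGF libraries were above the WT median of Stat2, none was above the highest WT library, and at 0.13 ± 0.06 the adjusted p was 0.536. Bst2, or tetherin, which holds budding viruses at the membrane, had 1.602, 2.87 and 7.03 CPM in NLGF and 0.531, 1.65 and 4.11 CPM in WT (0.61 ± 0.31, adjusted p = 0.588). Bst2 had the same log2 fold change as Oasl2 with a larger SE (0.31, against 0.16 for Oasl2). None of the 4 Ifit genes was called at week 24: Ifit3 stood at 0.18 ± 0.14, Ifit3b at 0.22 ± 0.12, Ifit2 at 0.07 ± 0.08 and Ifit1 at 0.39 ± 0.20. Ifitm3 stood at 0.49 ± 0.16 (adjusted p = 0.255), Usp18 at 0.37, Rsad2 at 0.35, Zc3hav1 at 0.33 and Ifitm2 at 0.02 ± 0.22, none of them called. The members not yet given, Ifnar2, Irf1, Ifi27, Ifi35 and Sp100, lay between 0.10 and 0.31 at week 24, with adjusted p of 0.463 and above. No member separated the genotypes fully at any week. The NLGF median was the higher in 15 of 38 members at week 3, 25 at week 8 and 35 at week 24. These counts were not made over all genes, so they only describe the 38 members.

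**Figure D2:**
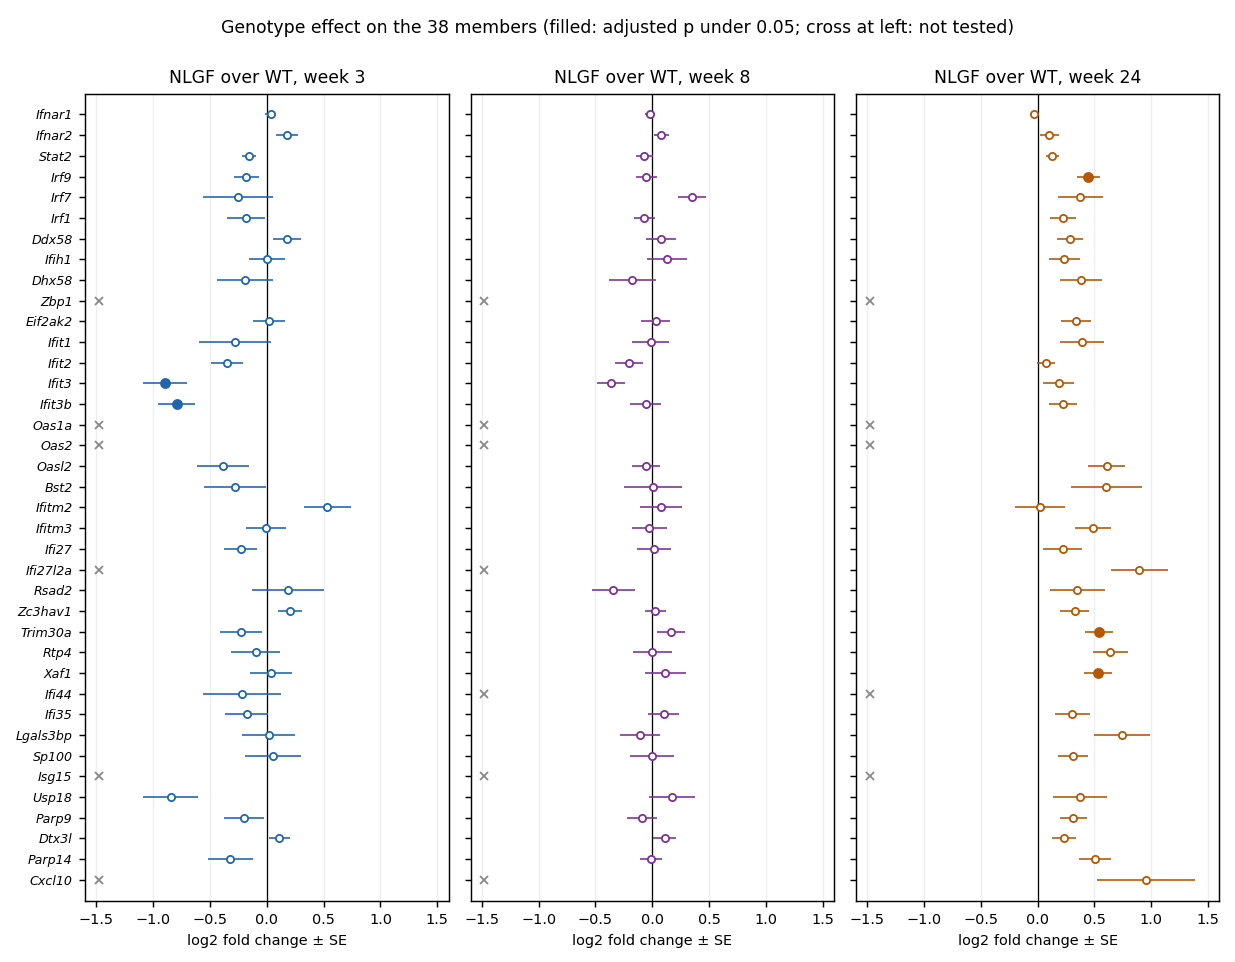
Genotype effect, as the log2 of NLGF over WT, and its SE for the 38 members at weeks 3, 8 and 24, ordered by role from the receptors at the top to Cxcl10. Filled points passed an adjusted p of 0.05 (Ifit3 and Ifit3b lower at week 3, Irf9, Trim30a and Xaf1 higher at week 24) and a cross at the left marks a member not tested.

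The week 24 calls lie close to the threshold. With each library left out in turn, Irf9 lost its call in 9 of 20 fits, Trim30a in 6 and Xaf1 in 15, with Irf9 between 0.40 and 0.50 throughout. The number of members called was 0 without NLGF females 1 and 3 or male 4 or WT females 3 and 5, and 1 without NLGF female 5 or male 5 or WT males 1 and 5. It was 5 without NLGF male 2 and 6 without WT male 4, each of these being left out alone. DESeq2 called Oasl2, Rtp4 and Parp14 as well, 6 members in all, and females alone and males alone gave 0.

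Markers of microglia, the cells in which plaques induce a known programme, moved with genotype at the same age. Of 15 markers of plaque-associated microglia 11 were called higher, and of 12 markers of homeostatic microglia 8 were. The summed level of the plaque-associated list was 1533 to 2143 CPM in NLGF and 1327 to 1922 CPM in WT. Apoe and Ctsd, with medians of 1054 and 302 CPM over all 60 libraries, made most of that sum. The summed level of the homeostatic list was 386 to 476 CPM in NLGF and 331 to 380 CPM in WT. No homeostatic marker was at 0 in any library, and of the plaque list Clec7a and Cst7 were at 0 in some WT libraries of week 3 and in no library of week 24. The part of these cells in the levels of the members was not tested. Among the genes of interferon signalling outside the 38 members, those called higher at week 24 included Irf8 (0.79 ± 0.08), Ptpn6 (0.74 ± 0.08) and Irf5 (0.43 ± 0.08). Irf8 and Irf5 are factors of myeloid cells and Ptpn6 is a phosphatase of blood-derived cells. Of 54 other interferon-stimulated genes tested, 4 were called higher, Ddx60, Nlrc5, Gbp2 and Irgm1, and of 20 genes of nucleic acid sensing 0 were.

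The genotype effect of week 24 minus that of week 3, tested over all 60 samples, was above 0 for 8 of the 36 members tested, where 0.901% of all genes were called higher and 1.15% in either direction. The 8 were Irf9 (0.63 ± 0.15, adjusted p = 0.0138), Ifit3 (1.09 ± 0.23, 0.00464), Ifit3b (1.02 ± 0.20, 0.00144), Oas1a (1.62 ± 0.43, 0.0417), Oasl2 (1.00 ± 0.26, 0.0361), Trim30a (0.77 ± 0.20, 0.0361), Usp18 (1.22 ± 0.33, 0.0417) and Parp14 (0.82 ± 0.22, 0.0428), each with its adjusted p from edgeR. For Ifit3 the genotype effect was -0.90 at week 3, -0.36 at week 8 and 0.18 at week 24, its largest size being at week 3. For Irf9 it was -0.18, -0.05 and 0.45, and for Trim30a -0.23, 0.17 and 0.54. Oas1a rests on low levels, with a median at week 24 of 0.381 CPM in NLGF libraries, against 0.220 CPM in WT libraries, and 57.6% of its transcript windows are shared with Oas1g.

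Without the deeper libraries 0 of 37 members were called in this difference, and Ifit3 stood at 0.87 ± 0.31 (adjusted p = 0.312), Irf9 at 0.49 ± 0.18 (adjusted p = 0.324) and Trim30a at 0.95 ± 0.27 (adjusted p = 0.249). With 1 library left out at a time Irf9, Ifit3 and Ifit3b stayed called in all 60 fits and the others lost their call in 14 to 24. The count was 3 without NLGF females 4 and 5 or male 5 or WT female 5 of week 3, or without NLGF females 1 and 3 or male 4 or WT females 3 and 5 or male 5 of week 24. It was 4 without NLGF males 3 and 4 or WT female 2 of week 3 or NLGF males 3 and 5, WT female 2 or WT males 1 and 2 of week 24, and 5 without WT males 2 and 5 of week 3. The difference of week 24 minus week 8 called 0 members, with 8 at an unadjusted p under 0.05 and 0 in DESeq2, where 0.31% of all genes were called. That of week 8 minus week 3 called 0 members as well (0.18% of all genes, 0.152% above 0 and 0.0282% below), with 4 at an unadjusted p under 0.05, while DESeq2 called Ifit3b there (adjusted p = 0.0468). Without NLGF female 3 or male 1 of week 3, 1 member was called.

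In WT mice, members of the response were lower after week 3. Both comparisons with week 3 share the WT libraries of week 3, which also serve in the genotype comparison of that age. At week 8 against week 3, 6 of 33 members were called lower and none higher, where 4.51% of all genes were lower and 7.14% changed. At week 24 against week 3, 11 were called lower and 1 higher, where 11.3% of all genes were lower and 21.9% changed, and the median over the members was -0.13, against 0.01 over all genes. Rsad2 (chr12:26442746-26456452), or viperin, which makes an antiviral nucleotide, had a log2 fold change of -1.05 ± 0.23 at week 8 (adjusted p = 0.00287) and of -1.001 ± 0.23 at week 24 (adjusted p = 0.00164). Its WT levels as lowest, median and highest library were 1.66, 2.41 and 5.59 CPM in the week 3 set, 0.833, 1.251 and 1.95 CPM in the week 8 set and 0.606, 1.13 and 2.48 CPM in the week 24 set. The week 3 set overlapped both later sets. The window before its start is shown for its element, of the kind also found in the windows of Ifit1, Ifit3, Ifit3b and Trim30a but not of Ifit2.
Rsad2, chr12:26456453-26456702, minus strand: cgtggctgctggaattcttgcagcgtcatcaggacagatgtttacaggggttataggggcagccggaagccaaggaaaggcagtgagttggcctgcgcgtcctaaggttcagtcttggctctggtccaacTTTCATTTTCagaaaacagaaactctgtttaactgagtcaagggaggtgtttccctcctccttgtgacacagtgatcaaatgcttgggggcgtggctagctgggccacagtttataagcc

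In WT the lowest, median and highest Irf9 was 5.72, 7.56 and 9.16 CPM in the week 3 set, 4.41, 5.82 and 8.39 CPM in the week 8 set and 3.56, 5.53 and 6.21 CPM in the week 24 set. Irf9 was called lower at week 8 (-0.34 ± 0.11, adjusted p = 0.0420) and at week 24 (-0.52 ± 0.11, adjusted p = 0.000474) against week 3. The other members lower at week 8 were the receptor chain Ifnar1 (-0.16), Oasl2 (-0.58), Usp18 (-0.90) and Parp14 (-0.54), with adjusted p between 0.0237 and 0.0488. With 1 of the 30 WT libraries left out in turn, the week 8 call was lost in 24 fits for Oasl2, 15 for Irf9, 9 for Ifnar1, 3 for Usp18, 1 for Parp14 and 0 for Rsad2. At week 24 they were Ifnar1 (-0.22), Stat2 (-0.26), Irf7 (-0.79), Oasl2 (-0.66), Ifitm3 (-0.61), which blocks the entry of viruses into cells, Rtp4 (-0.78), Ifi44 (-0.91), Parp9 (-0.42) and Parp14 (-0.61), with adjusted p between 0.00175 and 0.0344. In the same way the week 24 call was lost in 7 fits for Irf7, 3 for Parp9 and 2 for Ifi44, and in none for the other members called. Zc3hav1, which binds viral RNA rich in CpG, went the other way. Its lowest, median and highest WT levels were 6.52, 7.18 and 9.37 CPM in the week 3 set, 6.80, 7.71 and 11.6 CPM in the week 8 set and 7.72, 11.96 and 14.7 CPM in the week 24 set. Zc3hav1 was higher at week 24 against week 3 (0.64 ± 0.11, adjusted p = 3.61e-05). Against week 8 Zc3hav1 was the single member called at week 24 in WT (0.54 ± 0.10, adjusted p = 0.0149), where 0.0356% of all genes were higher and 0.279% changed.

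WT female 5 of week 3, described below, weighs on these counts. Without it 3 members were called at week 8 against week 3, and 8 lower and 3 higher at week 24 against week 3, the calls of Irf7, Ifi44 and Parp9 being lost and those of Ifit3b and Dtx3l gained. The count at week 8 was also 3 without WT females 1 and 2 or males 1 and 5 of week 3, WT males 1 to 4 of week 8 or WT female 1 of week 24. Markers of blood and of the brain's borders fell over the same weeks. At week 24 against week 3 in WT 5 of 5 blood markers, 4 of 6 tested of border macrophages, 5 of 11 of endothelium and 4 of 11 of meninges and mural cells were called lower. The summed blood list was 149 to 549 CPM in the week 3 set, 52.6 to 211 CPM in the week 8 set and 55.8 to 184 CPM in the week 24 set, and that of border macrophages 9.45 to 22.7, 6.06 to 19.6 and 6.03 to 13.4 CPM. Their part in the lower levels of the members was not tested. Of 54 other interferon-stimulated genes tested at week 24 against week 3 in WT, 13 were called lower and 2 higher, among them Slfn5 (-0.61 ± 0.11), Iigp1 (-1.58 ± 0.44) and Herc6 (0.67 ± 0.19).

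In NLGF mice 7 of 36 members were higher at week 24 than at week 8 and none was lower, where 1.36% of all genes were higher and 1.9% changed. Ifit3 had 4.92, 5.82 and 9.23 CPM in the week 24 set, against 2.51, 3.70 and 4.28 CPM in the week 8 set, so the 10 libraries of week 24 all lay above those of week 8 (0.79 ± 0.13, adjusted p = 0.000177). Ifit3b had 2.90, 4.57 and 5.24 CPM at the later age, against 1.59, 2.50 and 3.17 CPM (0.81 ± 0.13, adjusted p = 0.000191). Zc3hav1 had 11.1, 14.3 and 19.97 CPM at the later age, against 6.97, 8.41 and 9.30 CPM, again with no overlap (0.84 ± 0.11, adjusted p = 6.44e-06). Trim30a (0.58 ± 0.12), Xaf1 (0.58 ± 0.13), Dhx58 (0.69 ± 0.18) and Lgals3bp (0.88 ± 0.23) completed the 7. The WT values for the same weeks were 0.54 for Zc3hav1 (adjusted p = 0.0149) and 0.54 for Ifit3b (adjusted p = 0.131), and the difference between the genotypes is that of week 24 minus week 8 above, which called no member. Dhx58 lost its call in 8 and Lgals3bp in 12 of 30 fits with 1 library left out, the other 5 in none. Of 58 other interferon-stimulated genes tested in this comparison 14 were called higher and 0 lower, among them Phf11b (2.33 ± 0.38) and the immunoproteasome subunit Psmb8 (0.94 ± 0.13). Irf8, Irf5 and Ptpn6 were called higher in it as well.

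**Figure D3:**
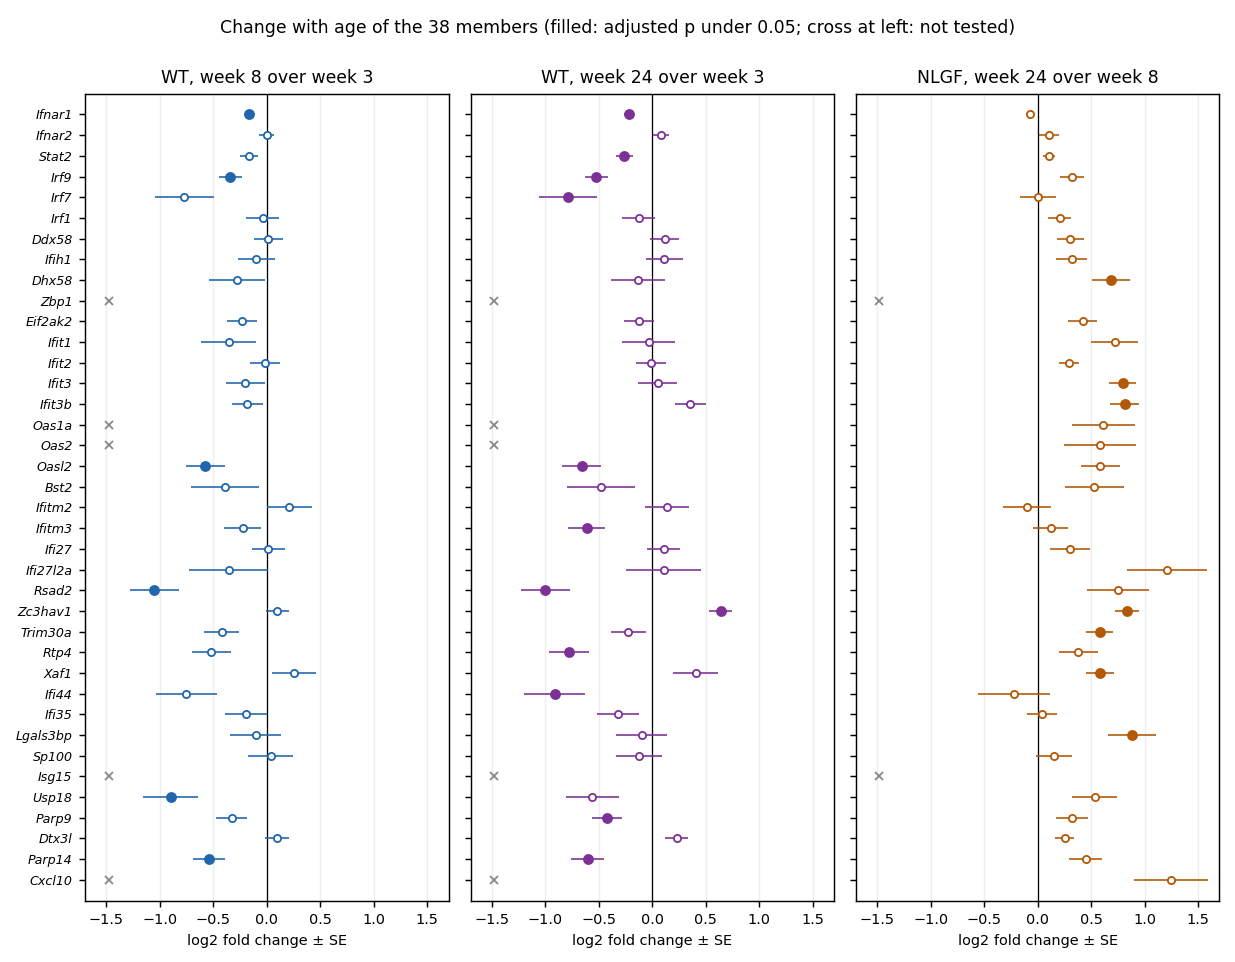
Log2 fold change with its SE of the 38 members for week 8 over week 3 and week 24 over week 3 in WT and for week 24 over week 8 in NLGF. Filled points passed an adjusted p of 0.05, 6 lower in the first panel, 11 lower and 1 higher in the second and 7 higher in the third, and a cross at the left marks a member not tested.

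Males and females were compared in their genotype effect at each age. With edgeR no member was called at week 3, 8 or 24, and no gene at all (0% of those tested). Members with an unadjusted p under 0.05 numbered 2, 0 and 2. DESeq2 called 1 member at week 3, Ifit2, at 0.91 (adjusted p = 0.0111), and 0 at weeks 8 and 24. For Ifit2 the genotype effect at week 3 was -0.82 in females alone (adjusted p = 0.0220) and 0.12 in males alone (adjusted p = 0.690). Sex here is that of the labels, so NLGF male 2 of week 3, whose Xist and Ddx3y go against its label, counts as a male. Without it the males minus females difference of Ifit2 was 0.99 ± 0.20 in edgeR (adjusted p = 0.164), against 0.93 ± 0.20 with it (adjusted p = 0.202).

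The authors' deposited table of genes called between the genotypes lists 6 entries for members. At week 3 the authors' deposited table has Ifit3 at -0.84, Ifit3b at -0.76, Usp18 at -0.45 and Ifit2 at -0.22 as log2 fold change of NLGF over WT. For week 24 the authors' deposited table has Irf9 at 0.40 and Trim30a at 0.41, and for week 8 it has no member. How these log2 fold changes were estimated is not known here, so their sizes are not compared with those above. Members made 4 of 2628 listed genes at week 3, 0 of 4 at week 8 and 2 of 156 at week 24. From the authors' own test, the largest adjusted p listed was 0.0600 at week 3, 0.0516 at week 8 and 0.0583 at week 24. The authors' cut was therefore not the 0.05 used here. As called genes alone are listed, their share of the genes tested cannot be given.

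Single libraries had the highest level of their set in many members, a count that was not made over all genes. WT female 5 of week 3 was the highest of its set of 10 in 22 of the 38 members and above the set's median in 32. Zbp1 stood at 2.23 CPM in this library and at most at 0.496 CPM in the other 9 WT libraries of the age, with 68 counts behind the value. Irf7 was 6.74 CPM there and at most 3.39 CPM in the other 9, Rsad2 5.59 and at most 3.15 CPM, Parp14 12.03 and at most 6.66 CPM, and Oasl2 7.99 and at most 5.16 CPM. The same library was the highest in 40 of 79 other interferon-stimulated genes, and their summed level was 737 CPM in it, against 331 to 423 CPM in the other 9. The interferon genes themselves summed to 0.0329 CPM in it.
Markers of lymphocytes, granulocytes and plasmacytoid dendritic cells summed to 5.06 CPM in this library, of which Cd4 made 4.34 CPM. Its microglial, endothelial, choroid plexus and meningeal marker sums were not the highest of its set. Without WT female 5 the genotype comparison at week 3 again called 2 members, Ifit3 at -0.70 ± 0.16 (adjusted p = 0.0331) and Ifit3b at -0.68 ± 0.15 (adjusted p = 0.0296). The median log2 fold change of all members tested at week 3 was -0.01 without it, against -0.18 with it.

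NLGF female 3 of week 24 was the highest of its set in 22 members, and WT female 3 of week 8 in 18. At the low end were NLGF female 2 and WT female 3 of week 3, each the lowest of its set in 18 members. In NLGF female 3 of week 24 the highest values were those of Ifnar2 (23.2 CPM, at most 18.1 CPM in the other 9), Ifitm2 (9.58 and at most 6.04 CPM) and Ifitm3 (10.6 and at most 7.65 CPM), the Ifitm proteins being restriction factors of the cell and endosome membrane. Markers of choroid plexus and ependyma, which border the hippocampus at dissection, summed to 10648 CPM in this library, the highest of its set, whose median was 602 CPM. The library was also the highest of its set for meninges and mural cells (748 CPM, median 351 CPM) and endothelium (260.1 CPM, median 240.2 CPM). It was so too for plaque-associated microglia (2143 CPM, median 1765 CPM), a sum made mostly by Apoe and Ctsd. For lymphocytes, granulocytes and plasmacytoid dendritic cells it had 3.13 CPM (median 1.54 CPM), again the highest. The part of these tissues and cells in its levels of the members was not tested. The 5 libraries with the highest Ifitm2 of all 60 were NLGF female 1 of week 3 (10.9 CPM), NLGF female 3 of week 24 (9.58 CPM), NLGF male 2 of week 3 (9.58 CPM), WT male 4 of week 24 (8.93 CPM) and WT female 3 of week 8 (8.90 CPM). The choroid plexus list summed to 10842, 10648, 10392, 6059 and 5223 CPM in these 5, in the same order, and each was the highest or second highest of its set for that list. NLGF male 4 of week 8 and NLGF female 1 of week 24, with sums of 5470 and 5452 CPM for the list, had 6.24 and 6.04 CPM of Ifitm2. The part of choroid plexus tissue in Ifitm2 was not tested, and 48.5% of the transcript windows of Ifitm2 are shared with other genes.

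**Figure D4:**
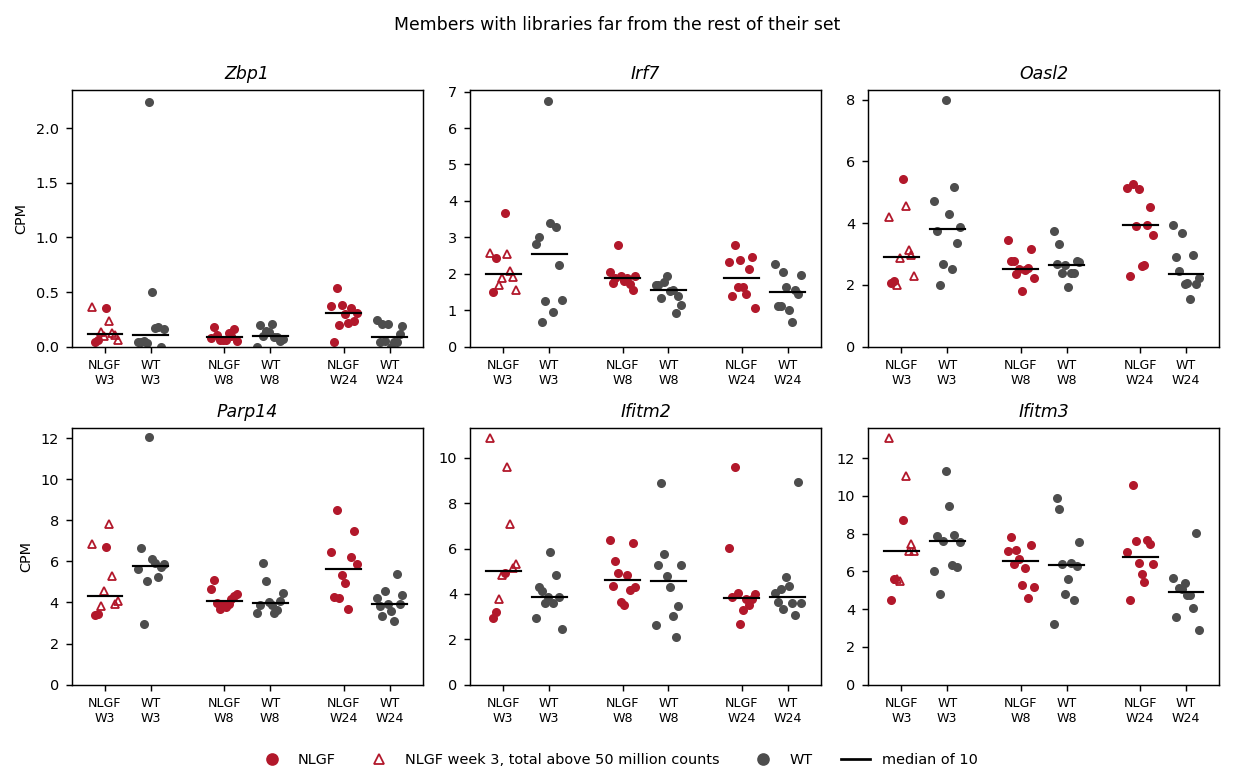
Level of Zbp1, Irf7, Oasl2, Parp14, Ifitm2 and Ifitm3 in each library, in CPM on linear axes that start at 0, with NLGF left of WT at each week, a bar at the median of each set of 10 and open triangles for the deeper libraries. WT female 5 of week 3 is the highest point of its set for Zbp1, Irf7, Oasl2 and Parp14, at 2.23, 6.74, 7.99 and 12.03 CPM, and NLGF female 3 of week 24 for Ifitm2 and Ifitm3, at 9.58 and 10.6 CPM.

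**Figure D5:**
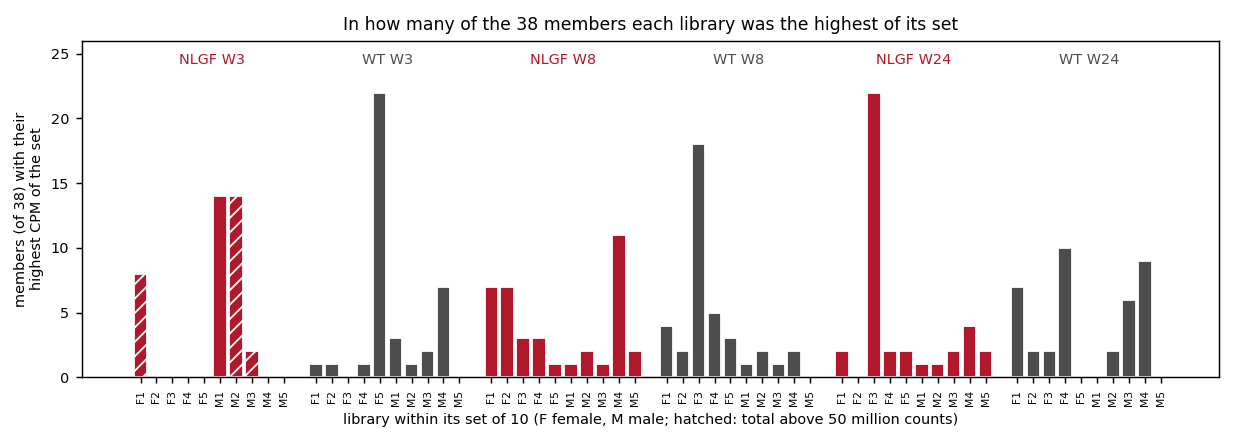
Number of the 38 members for which each library had the highest CPM of its set of 10, as bars from 0, NLGF left of WT at each week. WT female 5 of week 3 and NLGF female 3 of week 24 each reach 22, and WT female 3 of week 8 reaches 18.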

How the data were processed

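Total RNA of mouse hippocampus was depleted of ribosomal RNA and sequenced, per the labels' protocols. The submitters' processing notes name FastQC, STAR, edgeR and DESeq2 and the build mm10 without roles or versions; how reads were counted, with which annotation and by which strand is not given in the sources used here. The authors deposited raw counts for 35976 gene symbols in 60 samples, of which 4405 were at 0 in every sample. The authors' deposited table of called genes gives a mean normalized count (a signal), a log2 fold change, its standard error (entered as a score) and p-values, per the file headers. It lists 2628, 4 and 156 genes for weeks 3, 8 and 24, called ones alone.

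From the counts, edgeR 4.0.16 (R 4.3.3) was run on all genes that passed its filter with a minimum count of 10, with TMM scaling and a robust quasi-likelihood fit. The genotype was compared within each age with sex as a covariate over 20 samples. Differences of the genotype effect between ages came from 1 fit of all 60 samples, and ages within a genotype from fits of 30. P-values were adjusted by Benjamini-Hochberg over all genes tested, and a gene was called at an adjusted p under 0.05. CPM uses TMM totals of all 60 libraries. The SE is that of the log2 fold change. Alternatives were DESeq2 1.42.0 and its size factors, other filters on low counts, the replicate block, 1 sex, no sex term, all 60 samples in 1 fit, the deeper or the other week 3 libraries left out, and each library left out in turn. The scripts were tested on simulated counts. Within each set no libraries were duplicates of each other, and libraries of different sets were not compared for this.

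The 38 members and the other lists were chosen with earlier results of these data known. Members are given by role, with full values for those called between the genotypes within an age and for some others of each role; Ifit3 at weeks 8 and 24, Stat2, Bst2 and Zbp1 were chosen for their values. Upstream windows come from RefSeq (GRCm38.p6), gene positions and shared windows from GENCODE for mm10. Depth is the total count per library and sets the counting error, so members under 1 CPM rest on few counts.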

Additional observations from a re-analysis of the deposited data

Results flagged for a closer look

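In each set of 10 samples the highest and the lowest library of every member were compared with the range of the set, which gave 228 pairs of member and set and 26 values far from the others of their set. Chance flags about 1 in 20 such groups where values are normal and groups independent. Low counts, and members that are high in the same library, need not meet this, so the rate in these data is not known.

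WT female 5 of week 3 made 9 of the 26, with Irf7 at 6.74 CPM, Irf1 at 13.1 CPM, Zbp1 at 2.23 CPM, Oasl2 at 7.99 CPM, Rsad2 at 5.59 CPM, Trim30a at 4.14 CPM, Rtp4 at 3.29 CPM, Dtx3l at 10.4 CPM and Parp14 at 12.03 CPM, each the highest of its set. In the same set Isg15 was highest in WT female 1 at 0.137 CPM, and Usp18 was lowest in WT female 3 at 0.212 CPM. Among the NLGF libraries of week 3, Irf7 reached 3.68 CPM in male 1 and Ifi44 1.15 CPM in male 2. NLGF female 3 of week 24 stood apart with Ifnar2 at 23.2 CPM, Ifitm2 at 9.58 CPM and Ifitm3 at 10.6 CPM. WT male 4 of week 24 had 8.93 CPM of Ifitm2, with the highest choroid plexus sum of its set (6059 CPM), and WT female 4 of week 24 had 24.0 CPM of Stat2.

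At week 8 NLGF female 1, the library with the conflicting age field, had 2.09 CPM of Ifit1 and 0.710 CPM of Oas2, and NLGF female 4 had 2.79 CPM of Irf7. WT female 1 had 27.7 CPM of Stat2 and 1.42 CPM of Usp18, WT female 3 had 11.6 CPM of Zc3hav1, WT female 4 had 0.708 CPM of Ifi44, and WT female 5 had the lowest Irf1 at 4.16 CPM. What set these libraries apart was not tested.

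The genotype effect differed between week 24 and week 3 by a test of the difference itself for Irf9 (0.63), Ifit3 (1.09), Ifit3b (1.02), Oas1a (1.62), Oasl2 (1.00), Trim30a (0.77), Usp18 (1.22) and Parp14 (0.82), as log2 values of week 24 minus week 3. Without the deeper libraries of week 3, with 7 fewer samples, none of the 8 was called, and all 8 differences stayed above 0, between 0.49 (Irf9) and 1.39 (Oas1a). The 8 were chosen for a difference above 0 in a fit that holds the same remaining libraries. Their staying above 0 was thus favoured in advance and is no independent support.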

How the results depend on the processing

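At week 3 the members called numbered 2. There were 4 with all 60 samples in 1 fit, 5 with the deeper NLGF libraries alone and 0 without them, 1 in females, 0 in males and 1 to 3 with 1 library left out. Without the deeper libraries Stat2 turned to 0.010 and Ifitm2 to -0.081, and in males alone Ifit2 turned to 0.12. At week 24 the 3 calls became 6 with DESeq2, 0 in females, 0 in males and 0 to 6 with 1 library left out. In the difference of week 24 minus week 3 the 8 calls became 3 with no filter on low counts, 0 without the deeper libraries and 3 to 9 with 1 library left out. That of week 8 minus week 3 had 1 call with DESeq2 and 0 to 1 with 1 library left out, and DESeq2 gave 1 call in males minus females at week 3. In WT, week 8 over week 3 had 3 calls with no filter and 3 to 9 with 1 library left out, against 6, and week 24 over week 8 had 2 with DESeq2, against 1. For these changes the cause was not tested, except that 1 sex alone and a part of the libraries hold fewer samples. Members under about 1 CPM are limited by depth.

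By the labels, samples of the 2 genotypes with the same sex and number share only that number. Of 10 pairs 4, 4 and 6 at weeks 3, 8 and 24 correlated above 0.1, with highest values of 0.357, 0.266 and 0.520. The own number was the best match in 1, 4 and 3 pairs. What such pairs share beyond the number was not tested. With the replicate block 1 member was called at week 3, 1 at week 24, 2 for week 8 over week 3 in WT and 0 for week 24 over week 8 in WT. The other counts stayed within 1.5 times under the block.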
